A study of Mus musculus with 67 samples.

Results

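The 53 genes described here encode factors that build ribosomes, together with subunits and factors of RNA polymerase I. They were taken from a list of gene names, with no measured value used to choose them, and they are 53 of the 35539 genes of the transcript tables. The B and T cell tables each listed all 53, and all 53 passed the filter on low counts in every fit. By role the list holds 3 core proteins of the box C/D snoRNPs, 3 genes of the box H/ACA snoRNPs and their chaperone, 5 genes of RNA polymerase I and its factors, 16 of the small subunit processome and 40S assembly, 19 of 60S assembly, 6 abundant nucleolar proteins and regulators, and 1 enzyme of polyamine synthesis.

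Ribosomes are assembled in the nucleolus, where RNA polymerase I transcribes the long precursor of the ribosomal RNAs. Small nucleolar ribonucleoproteins (snoRNPs) guide chemical modification of the precursor, the small subunit processome and the 60S assembly factors cut and fold it while ribosomal proteins are added, and nucleolar proteins such as nucleophosmin and nucleolin hold and carry the particles. Resting lymphocytes are small cells with little cytoplasm, and growth after engagement of the antigen receptor is accompanied by enlargement of the nucleolus. Many genes of this pathway are known targets of the transcription factor Myc, which binds the E-box CACGTG.

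RNA sequencing was performed on B cells and on CD4+ T cells of C57BL/6 mice, 60 libraries in 20 groups of 3. Within each of the 4 sets (EAE B cells, naive B cells, EAE T cells and naive T cells) the arms were antigen receptor stimulation with anti-Btla and IFNb, with control Ig and IFNb, with anti-Btla, with control Ig, and no stimulation. EAE cells came from mice immunized with MOG peptide, and naive cells from mice that were not immunized. B cells were stimulated with anti-IgM/G and T cells with anti-CD3 for 18 h, the antibodies being carried on latex beads. No allele was altered in any group. The cells were purified by enrichment kits from spleen and lymph nodes, the mice were of both sexes and 8 to 12 weeks old, and how the unstimulated cells were held was not given in the sources used here. Nothing in the labels says whether replicates were separate mice, so p-values measure the spread between these libraries.

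Depth, in units of 1000000 counts, was 6.68 to 61.9 in B cell libraries (median 32.9) and 7.3 to 34 in T cell libraries (median 13.1). In EAE B cells depth was 6.68 to 29.5 with anti-Btla, against 36.2 to 61.9 with control Ig. B cell markers (7 genes) summed to 3565 to 6639 CPM (counts scaled to library total) in EAE B cells and 3946 to 6551 CPM in naive B cells, and T cell markers (7 genes) to 2134 to 3848 CPM in EAE T cells and 2339 to 3025 CPM in naive T cells. Although the labels give CD4+ T cells, Cd8a ranged between 213 and 344 CPM in naive T cells, with Cd8b1 between 288 and 752 CPM, while EAE T cells held Cd8a at 0.793 to 6.14 CPM. Myeloid markers (7 genes) summed to 109 to 317 CPM in unstimulated EAE T cells, against 12.2 to 18.1 CPM in unstimulated naive T cells. The part of these cells in any difference between EAE and naive T cells was not tested. In bulk RNA, fewer cells of a type and less RNA per cell cannot be told apart, and a share of counts does not show the amount of RNA in a cell.

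Promoters are shown because the members changed together. RefSeq (GRCm38.p6) gave a window of 250 bases before and 50 after the start for 45 of the 53 members, and Npm1, Bop1, Rrs1, Rrp12, Fbl, Tcof1, Gnl2 and Srm had no entry. The E-box CACGTG, which reads the same on both strands, was in 10 of the 45 windows (22.2%), against 7.24% of the windows of all 27025 genes of the table, 10.8% of the 7702 genes that averaged 5 CPM or more in naive B cells and 18.5% of 65 other ribosome biogenesis genes (12 windows). In 7 of the 10 the E-box lay after the start, and 3 of the 45 (6.67%) had one in the 250 bases before it, against 6.05% of all genes, 8.79% of the 7702 genes and 10.8% of the other ribosome biogenesis genes. The 6 promoters below hold their E-boxes before the start (Rrn3, Nop2 and Imp4) or within 30 bases after it (Pes1, Wdr43 and Tsr1), and they belong to initiation of RNA polymerase I (Rrn3), 60S assembly (Nop2 and Pes1) and small subunit assembly (Imp4, Wdr43 and Tsr1). Each sequence runs 5′ to 3′ from 250 bases before the start to 30 bases after it, with the E-box in capitals. A match is a description of the letters and not evidence that a factor was bound.
Rrn3 (chr16:13780449-13780728, plus strand): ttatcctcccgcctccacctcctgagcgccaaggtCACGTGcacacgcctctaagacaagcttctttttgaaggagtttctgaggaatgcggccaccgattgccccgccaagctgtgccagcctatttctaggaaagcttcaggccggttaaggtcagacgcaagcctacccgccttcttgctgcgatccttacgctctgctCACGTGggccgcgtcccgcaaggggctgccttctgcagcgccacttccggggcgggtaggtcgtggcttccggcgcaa
Nop2 (chr6:125131633-125131912, plus strand): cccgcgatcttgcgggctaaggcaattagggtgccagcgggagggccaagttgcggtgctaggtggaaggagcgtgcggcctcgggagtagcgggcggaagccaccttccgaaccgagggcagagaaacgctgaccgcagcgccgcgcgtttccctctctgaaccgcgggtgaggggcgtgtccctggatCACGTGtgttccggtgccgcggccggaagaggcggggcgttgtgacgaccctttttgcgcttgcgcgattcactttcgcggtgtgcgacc
Imp4 (chr1:34439579-34439858, plus strand): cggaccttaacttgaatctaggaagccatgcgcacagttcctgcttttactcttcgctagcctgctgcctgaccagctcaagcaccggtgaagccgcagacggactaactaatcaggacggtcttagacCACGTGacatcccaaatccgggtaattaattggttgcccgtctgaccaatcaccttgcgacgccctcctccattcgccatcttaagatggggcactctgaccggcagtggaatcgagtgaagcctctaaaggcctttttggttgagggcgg
Pes1 (chr11:3963725-3964004, plus strand): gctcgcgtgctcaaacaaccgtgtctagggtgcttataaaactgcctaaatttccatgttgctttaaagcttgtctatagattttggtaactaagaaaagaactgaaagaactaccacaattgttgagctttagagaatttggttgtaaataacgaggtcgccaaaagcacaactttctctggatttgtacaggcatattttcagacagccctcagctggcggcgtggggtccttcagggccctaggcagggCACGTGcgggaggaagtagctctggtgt
Wdr43 (chr17:71615965-71616244, plus strand): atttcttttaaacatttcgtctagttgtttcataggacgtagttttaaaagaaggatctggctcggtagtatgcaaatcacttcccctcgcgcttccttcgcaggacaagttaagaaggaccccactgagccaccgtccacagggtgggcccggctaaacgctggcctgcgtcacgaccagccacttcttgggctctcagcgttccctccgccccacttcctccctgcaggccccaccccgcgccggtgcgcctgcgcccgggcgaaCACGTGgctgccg
Tsr1 (chr11:74897830-74898109, plus strand): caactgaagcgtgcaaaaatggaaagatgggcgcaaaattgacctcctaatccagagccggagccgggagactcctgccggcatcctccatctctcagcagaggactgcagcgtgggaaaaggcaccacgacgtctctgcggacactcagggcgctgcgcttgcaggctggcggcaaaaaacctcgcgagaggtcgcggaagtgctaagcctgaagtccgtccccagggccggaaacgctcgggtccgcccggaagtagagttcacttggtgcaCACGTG

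Per length (TPM, the length-scaled unit of the tables, summed over a gene's transcripts), nucleophosmin (Npm1, a nucleolar histone and ribosome chaperone on chromosome 11, 33152287 to 33163206, minus strand) was the highest member in the control Ig and unstimulated arms of all 4 sets. With control Ig it averaged 3664 ± 264 TPM in EAE B cells, 3178 ± 176 TPM in naive B cells, 5266 ± 839 TPM in EAE T cells and 2111 ± 40.2 TPM in naive T cells (SD, n = 3 each). Nucleolin (Ncl, the abundant nucleolar RNA-binding protein) came next in each, at 425 ± 15.6 TPM in naive T cells to 849 ± 145 TPM in EAE T cells. At the other end, Rrs1, Rrp12 and Bysl, factors of 60S assembly, 40S export and 40S assembly, took the last 3 places in the control Ig arm of each set, at 8.17 to 14.7 TPM. The subunits and factors of RNA polymerase I stood between these, from 14.8 ± 1.29 TPM for Rrn3 to 45.8 ± 8.67 TPM for Polr1a in EAE B cells with control Ig. Several members overlap other transcripts, with 26 of the 53 sharing exon bases with another gene, 6 of them on the same strand, and 8 of the 53 hold snoRNA genes inside them (23 snoRNA genes, 5 of them in Nop56).

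Summed over the 53 members, the share of a library's counts separated anti-Btla from control Ig in B cells, and the anti-Btla and control Ig arms from unstimulated cells in T cells. In EAE B cells the members took 0.864 to 1.02% of counts with anti-Btla, against 1.35 to 1.53% with control Ig, and 0.904 to 0.961% in unstimulated cells. In naive B cells they took 0.868 to 0.907% with anti-Btla, against 1.32 to 1.36% with control Ig, and 0.843 to 0.868% in unstimulated cells. The anti-Btla and control Ig libraries did not overlap in either set of B cells. These sums give most weight to abundant members. In EAE B cells with control Ig, Npm1 averaged 3738 CPM and Ncl 2711 CPM, and the next member, Pa2g4, 655 CPM. In EAE T cells the share was 1.11 to 1.40% with anti-Btla and 1.35 to 1.68% with control Ig, which overlapped, and 0.398 to 0.436% in unstimulated cells. In naive T cells it was 0.919 to 0.975% with anti-Btla and 0.939 to 0.987% with control Ig, and 0.419 to 0.440% in unstimulated cells.

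**Figure D1:**
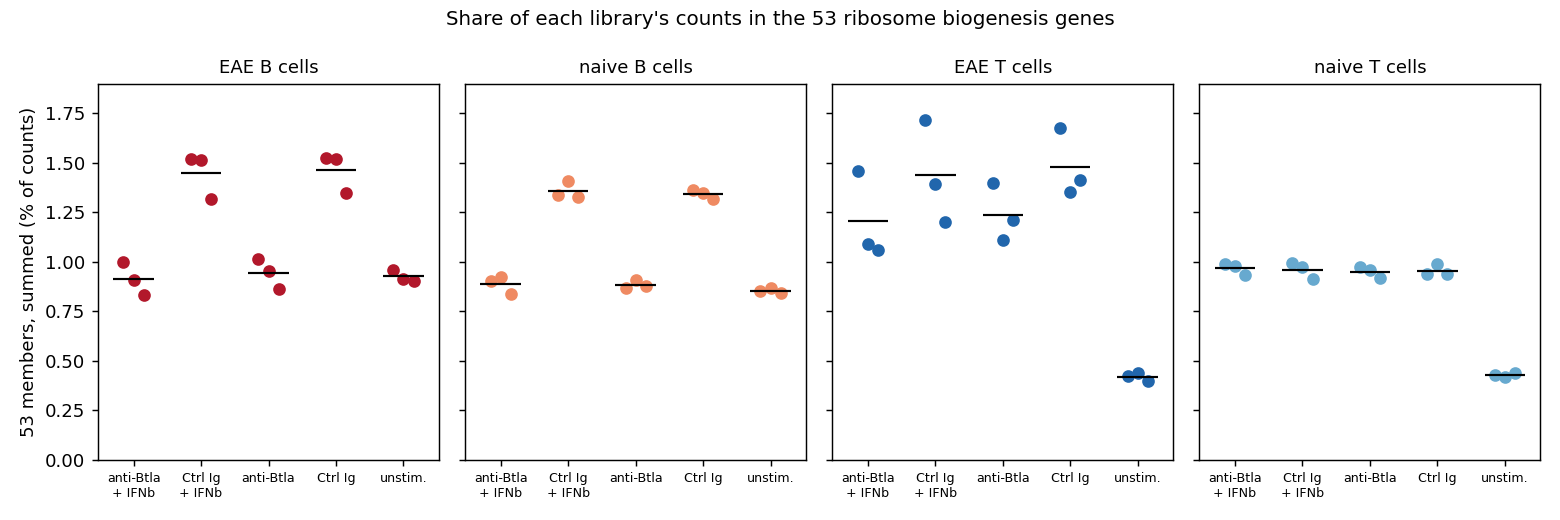
Share of each library's counts (percent, y axis) in the 53 members for the 5 arms of each set, one point per library and a line at the mean of 3. In both sets of B cells the anti-Btla points lie below the control Ig points and near the unstimulated ones, and in both sets of T cells every stimulated point lies above the unstimulated ones.

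The first comparison asked how these genes differed between antigen receptor stimulation with control Ig and no stimulation. The stimulated arm also held control Ig on beads, and how the unstimulated cells were held was not given. These cannot be told apart from receptor stimulation, and the contrast is called stimulation below. In B cells stimulation raised nearly all of them by a small amount. In EAE B cells 51 of 53 members were higher at an adjusted p under 0.05 (edgeR quasi-likelihood test, Benjamini-Hochberg adjustment over all genes tested), where 21% of the 16989 genes tested were called higher, and in naive B cells 52 of 53, where 22.8% of 16618 were. The median change of the members on the log2 scale was 0.53 in EAE B cells (1.44-fold, 0.21 to 1.15) and 0.62 in naive B cells (1.53-fold, 0.22 to 1.19). No member was called lower. The median of all genes tested was -0.05 in EAE B cells and -0.02 in naive B cells.

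By role, the snoRNP and nucleolar proteins had larger median changes than the polymerase. The box H/ACA genes had a median of 1.05 in EAE B cells and 0.93 in naive B cells, and the 6 abundant nucleolar proteins 0.93 and 0.86, whereas the 5 RNA polymerase I genes had 0.33 and 0.38. Npm1 had 3968, 3923 and 3323 CPM in stimulated EAE B cells, against 2102, 1650 and 1789 CPM in unstimulated ones (log2 change 1.15 ± 0.08 SE, adjusted p = 2.1e-08). The 2 groups did not overlap. Dkc1, the pseudouridine synthase of the box H/ACA snoRNP, had 325, 311 and 282 CPM in stimulated EAE B cells, against 164, 144 and 174 CPM in unstimulated ones (1.05 ± 0.09, adjusted p = 1.4e-07). Fibrillarin (Fbl), the methyltransferase of the box C/D snoRNP, had 78.3, 93.5 and 66.4 CPM in stimulated naive B cells, against 42.8, 52.5 and 42.2 CPM in unstimulated ones (0.90 ± 0.10, adjusted p = 1.6e-06). Of the polymerase genes, Polr1b, its second largest subunit, had 55.7, 58.4 and 51.9 CPM in stimulated naive B cells, against 42.3, 43.1 and 39.4 CPM in unstimulated ones (0.52 ± 0.07, adjusted p = 5.7e-06). Treacle (Tcof1), a nucleolar scaffold of RNA polymerase I transcription, was not called in either set of B cells (0.21 ± 0.12 and adjusted p = 0.18 in EAE, 0.24 ± 0.10 and adjusted p = 0.063 in naive), and Rrp9, a protein of the U3 snoRNP, was not called in EAE B cells (0.37 ± 0.17, adjusted p = 0.096).

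In T cells the same contrast gave larger median changes, a difference that was not tested between the cell types. In EAE T cells 52 of 53 were higher, where 31.8% of the 14547 genes tested were called higher, and in naive T cells 52 of 53, where 27.2% of 15137 were. The median log2 change was 1.92 in EAE T cells (3.8-fold) and 1.38 in naive T cells (2.60-fold), and the median of all genes tested was -0.07 and -0.02. Spermidine synthase (Srm, an enzyme of polyamine synthesis on chromosome 4, 148591503 to 148594993, plus strand) changed most in both sets. It had 103, 84.4 and 87.3 CPM in stimulated EAE T cells, against 5.88, 12.45 and 5.77 CPM in unstimulated ones (log2 change 3.60 ± 0.29, adjusted p = 1.9e-06). Naive T cells had 60.4, 65.1 and 62.9 CPM when stimulated, against 6.62, 3.76 and 4.74 CPM (3.75 ± 0.11, adjusted p = 8.3e-21). In both sets every stimulated library was several-fold above every unstimulated one.

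The other roles followed in T cells with medians from 1.00 for the RNA polymerase I genes to 2.55 for the box H/ACA genes in EAE T cells, and from 0.81 for the RNA polymerase I genes to 1.74 for the box C/D genes in naive T cells. Rrp12, a factor of 40S export, had 64.1, 44.6 and 52.3 CPM in stimulated EAE T cells, against 5.88, 4.84 and 6.44 CPM in unstimulated ones (3.22 ± 0.13, adjusted p = 8.2e-14). Rrp1b, a nucleolar protein of 60S assembly, had 84.8, 83.3 and 81.9 CPM in stimulated naive T cells, against 10.5, 12.7 and 13.4 CPM in unstimulated ones (2.79 ± 0.08, adjusted p = 1.1e-20). Within RNA polymerase I the genes changed unequally. In EAE T cells Polr1b changed by 2.19 ± 0.11 (adjusted p = 7.2e-13), while the largest subunit, Polr1a, changed by 0.63 ± 0.08 (adjusted p = 1.2e-06) and the initiation factor Rrn3 by 0.58 ± 0.09 (adjusted p = 8.4e-06). With protein-coding transcripts alone, Polr1a changed by 0.18 in EAE T cells (adjusted p = 0.11). The same counting left Gtpbp4, a GTPase of 60S assembly, at 0.03 in EAE T cells, against 0.94 ± 0.09 with all of its transcripts.

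**Figure D2:**
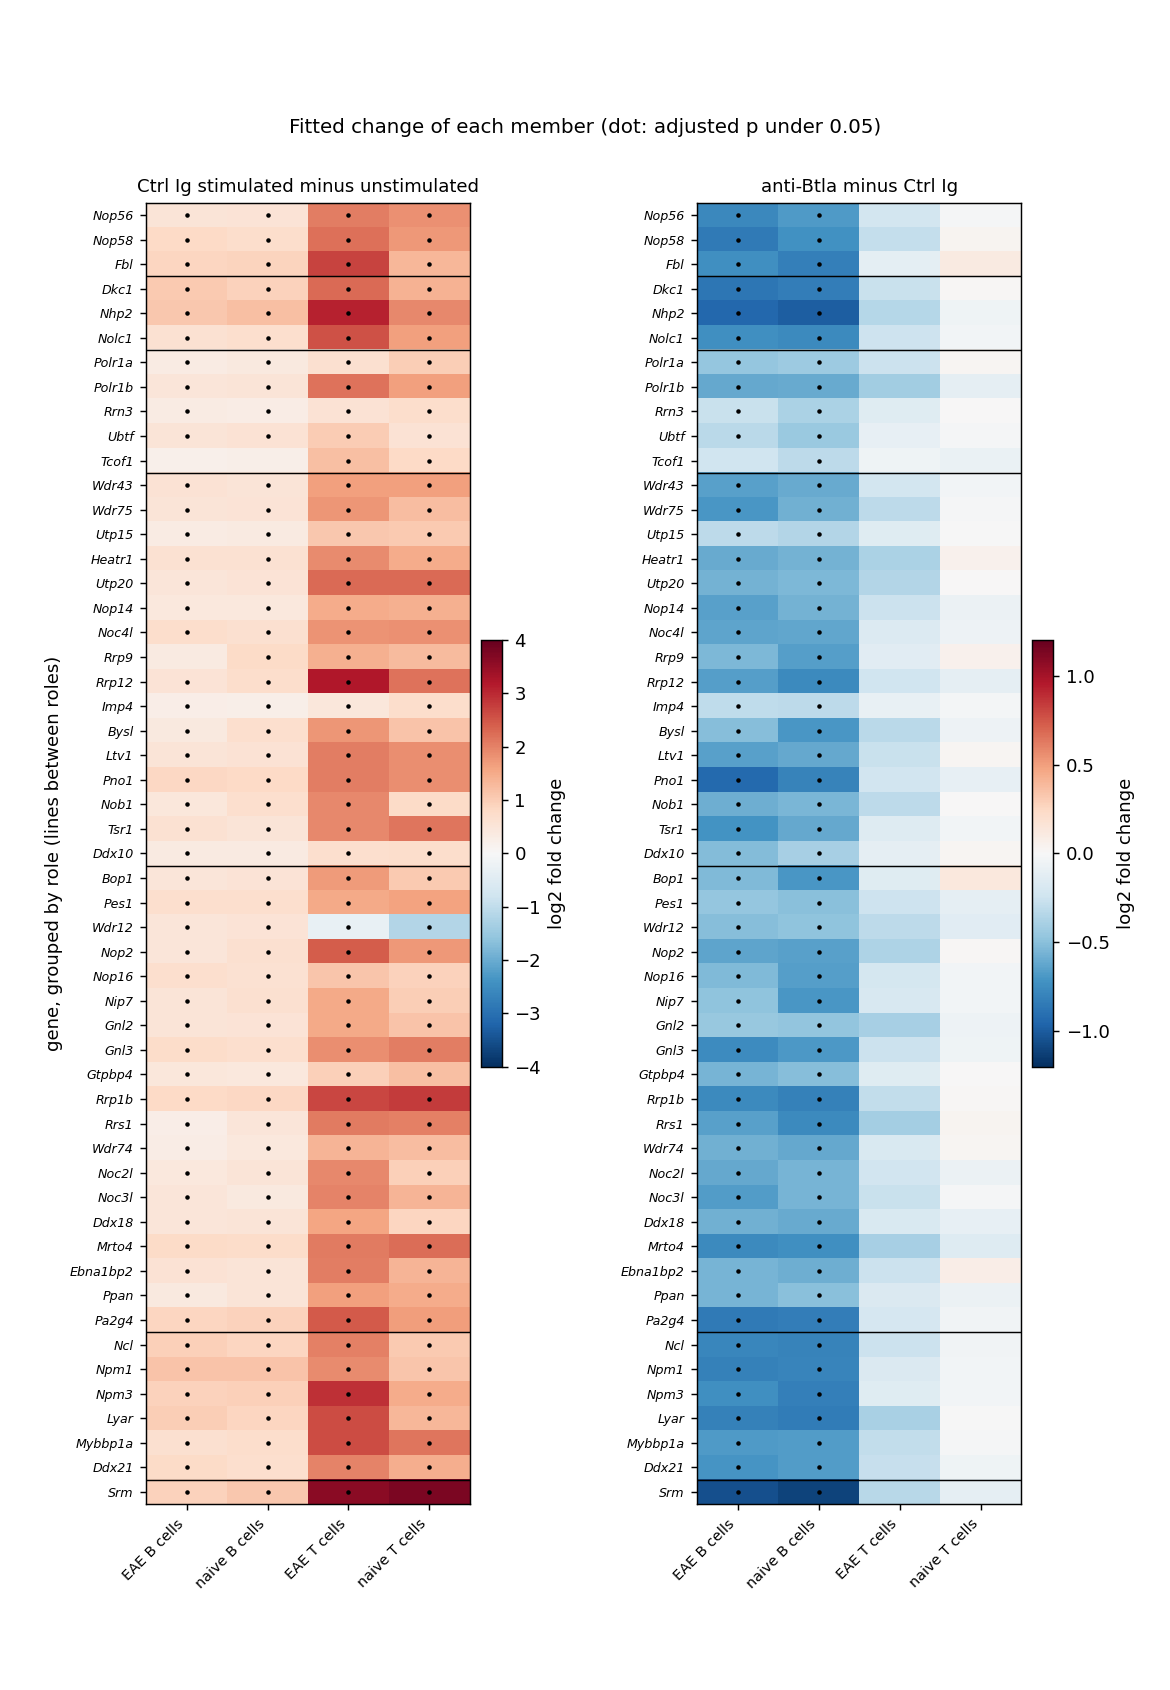
Fitted log2 fold change of each member (rows, grouped by role) on stimulation (left, control Ig minus unstimulated) and with anti-Btla (right, anti-Btla minus control Ig) in the 4 sets, each panel with its own color scale and a dot where the adjusted p was under 0.05. Stimulation raised nearly all members in all sets, and with anti-Btla the dots are in the B cell columns only.

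Wdr12, which with Pes1 and Bop1 forms a complex of 60S assembly, was the 1 member lower in stimulated T cells (23.1% of genes tested were called lower in naive T cells and 31.5% in EAE T cells). The gene lies on chromosome 1, 60069785 to 60098645, minus strand. In naive T cells it had 171, 167 and 155 CPM when stimulated, against 371, 413 and 362 CPM in unstimulated cells (-1.16 ± 0.05, adjusted p = 4.3e-17), with no overlap. In EAE T cells it had 103, 74.7 and 83.2 CPM when stimulated, against 140, 77.3 and 116 CPM in unstimulated cells (-0.30 ± 0.10, adjusted p = 0.012), and these groups overlapped. That call in EAE T cells was lost without the replicate block (adjusted p = 0.16) and on leaving out any 1 of 5 of the 6 libraries. Its partners were higher in stimulated cells of both sets, Pes1 by 1.52 ± 0.09 in EAE T cells and 1.60 ± 0.08 in naive T cells, and Bop1 by 1.69 ± 0.14 and 1.05 ± 0.10. In B cells Wdr12 was called higher, by 0.50 ± 0.08 in EAE B cells (adjusted p = 9.8e-05) and 0.53 ± 0.06 in naive B cells (adjusted p = 1.1e-06).

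The transcripts of Wdr12 did not change alike. In naive T cells Wdr12-201 averaged 104 ± 4.78 CPM when stimulated and 299 ± 22.3 CPM when not (SD, n = 3 each), while Wdr12-203 averaged 51.8 ± 5.88 CPM and 60.2 ± 11.1 CPM. In EAE T cells Wdr12-201 averaged 36.5 ± 5.72 CPM when stimulated and 83.9 ± 26.2 CPM when not, while Wdr12-203 averaged 43.5 ± 8.07 CPM and 18.9 ± 1.32 CPM. Summed TPM, which weighs each transcript by its length, ran the other way from the counts in EAE T cells, at 59.0, 63.8 and 87.2 TPM in stimulated cells, against 51.3, 33.5 and 48.3 TPM in unstimulated ones. For naive T cells both scales were lower in stimulated cells, with 89.6, 74.8 and 82.9 TPM, against 155, 150 and 110 TPM in unstimulated ones. Wdr12 also shares exon bases with Carf on the opposite strand, and whether the counting used strand was not given in the sources used here.

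**Figure D3:**
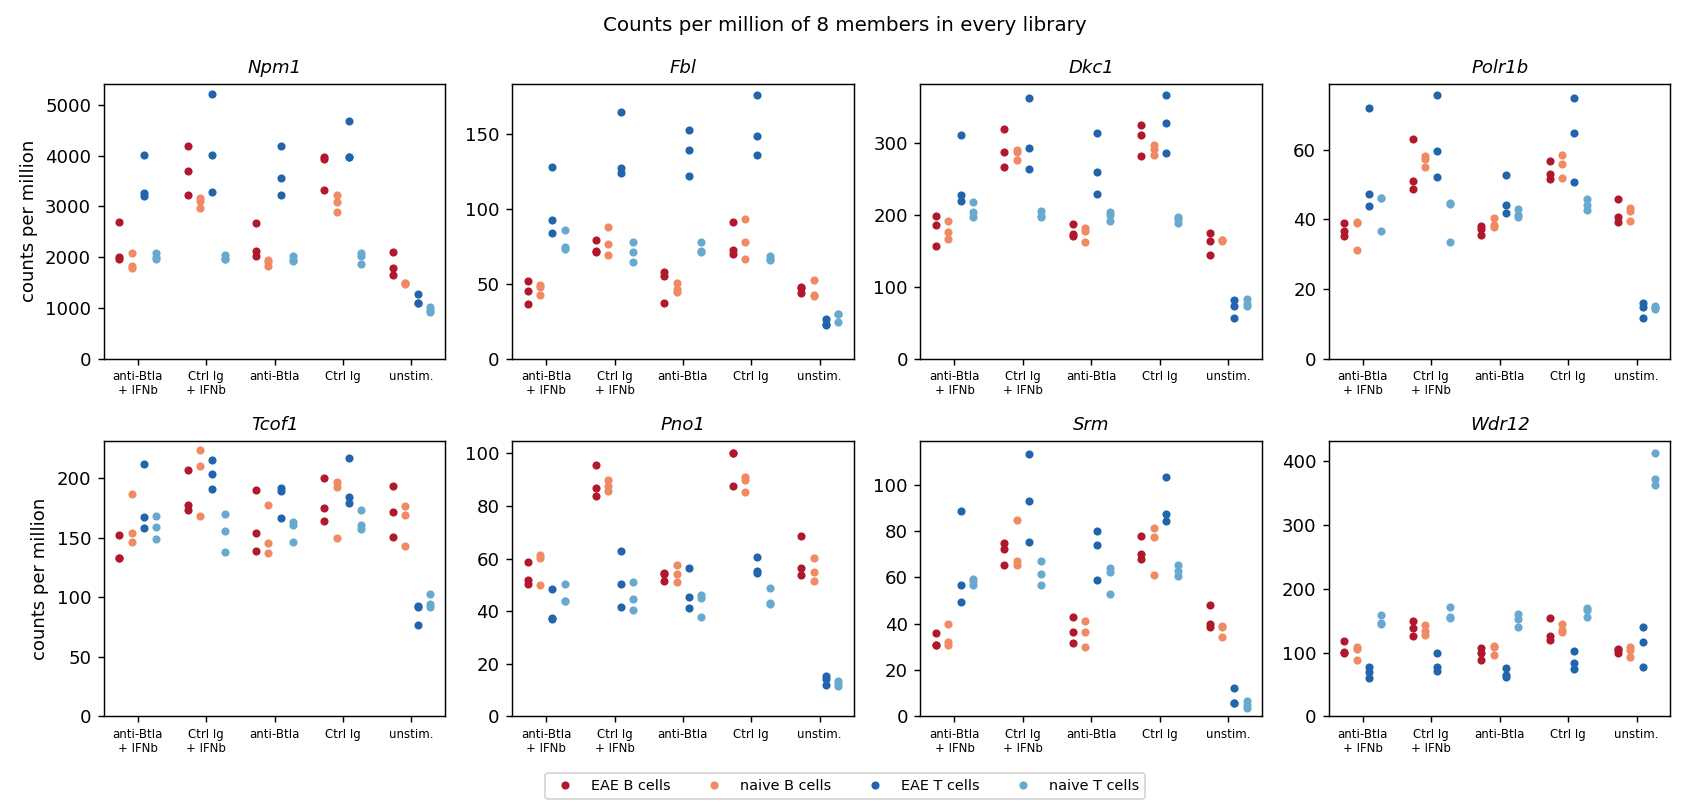
CPM (y axis, from 0) of 8 members in every library, by arm (x axis) and set (color), one point per library. Npm1, Fbl, Dkc1, Polr1b, Pno1 and Srm show lower anti-Btla than control Ig points in B cells, Tcof1 overlaps between these arms, and Wdr12 is highest in unstimulated naive T cells, at 362 to 413 CPM.

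Whether stimulation moved the members differently in EAE and naive cells was tested as the difference of the 2 changes. In B cells edgeR called none of the 53 members (0.0808% of 17323 genes were called in either direction), DESeq2 called none, and none had an unadjusted p under 0.05. In T cells the signed difference, EAE minus naive, was called above 0 for 30 members, where 20.7% of 15966 genes were, and below 0 for 1, where 16.9% were, with a median difference of 0.46 on the log2 scale. Wdr12 is among the 30 because both of its changes were decreases and the one in EAE T cells was nearer 0. The largest differences were those of Npm3, a histone chaperone of the nucleoplasmin family (1.51 ± 0.17, adjusted p = 1.2e-08), Fbl (1.45 ± 0.14, adjusted p = 1.2e-09) and Lyar, a nucleolar zinc finger protein (1.37 ± 0.18, adjusted p = 3.2e-07). Fbl had 176, 136 and 149 CPM in stimulated EAE T cells, against 66.6, 68.8 and 66.1 CPM in stimulated naive T cells. Unstimulated cells had 23.5, 26.4 and 22.5 CPM in EAE and 29.7, 24.3 and 29.7 CPM in naive. Polr1a was the 1 member with a difference below 0 (-0.28 ± 0.10, adjusted p = 0.023). The differences in CD8 and myeloid marker levels between these libraries, given above, stand beside all of these values. B cell markers summed to 9.69 to 45.2 CPM in EAE T cells with control Ig and 16.2 to 182 CPM in unstimulated ones, against 23.4 to 65.9 CPM and 32.2 to 66.9 CPM in the same arms of naive T cells. Mitochondrial counts took 1.27 to 2.81% with control Ig and 5.28 to 7% in unstimulated EAE T cells, against 3.83 to 4.15% and 4.55 to 4.82% in naive T cells. Their part in the changes on stimulation in EAE T cells, and in the differences from naive T cells, was not tested.

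**Figure D4:**
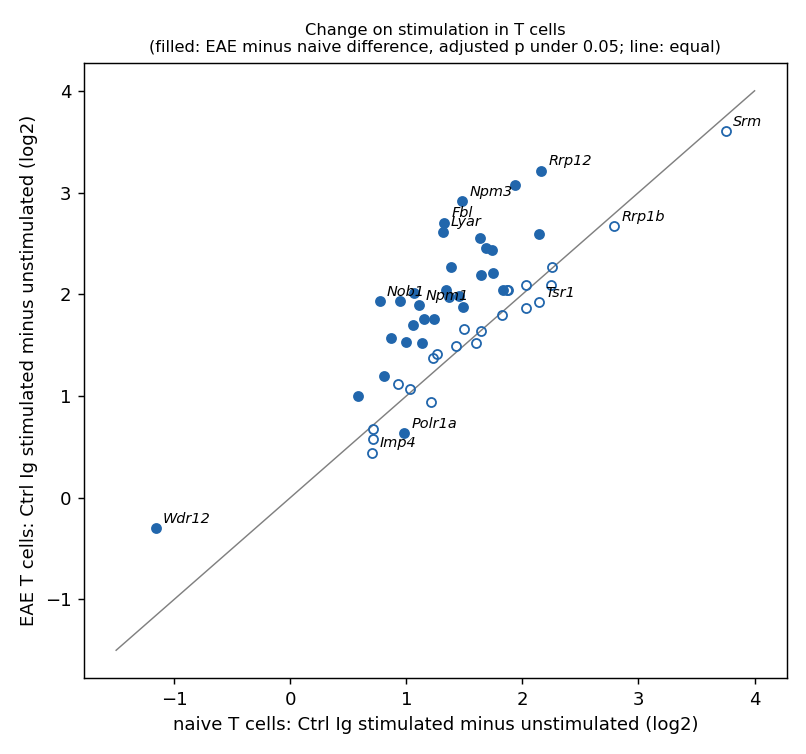
Log2 change of each member on stimulation in naive T cells (x axis) and EAE T cells (y axis), one point per gene, filled where the difference of the changes had an adjusted p under 0.05, with a line where both are equal. Of the filled points 30 lie above the line and Polr1a lies below it, and Wdr12 is the member below 0 on both axes.

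The next comparison asked what anti-Btla did to stimulated cells. In B cells it lowered almost the whole list. In EAE B cells 52 of 53 members were lower than with control Ig, where 16.6% of the 16989 genes tested were called lower, and in naive B cells 53 of 53, where 19.8% of 16618 were. The median log2 change was -0.64 in EAE B cells (1.56-fold, -1.05 to -0.24) and -0.62 in naive B cells (1.54-fold, -1.11 to -0.31), and the median of all genes was 0.04 and 0.01. In same-numbered pairs of libraries, 52 of 53 members in EAE B cells and 53 of 53 in naive B cells were lower in 3 of 3 pairs. The anti-Btla and control Ig libraries did not overlap for 48 members in EAE B cells and 52 in naive B cells. The counts of pairs and of overlap were made for the members alone, so no share of all genes stands beside them. Leaving out any 1 library kept 50 to 53 members called lower in EAE B cells and 51 to 53 in naive B cells. Those counts have no share of all genes beside them either.

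Srm had the largest change in both sets of B cells. It had 42.8, 36.2 and 31.6 CPM in EAE B cells with anti-Btla, against 78.0, 68.1 and 70.2 CPM with control Ig (-1.05 ± 0.08, adjusted p = 1.5e-07). In naive B cells it had 41.2, 30.002 and 36.3 CPM with anti-Btla, against 77.4, 81.2 and 61.1 CPM with control Ig (-1.11 ± 0.13, adjusted p = 4.5e-05). The groups were far apart in each set. Nhp2, a core protein of the box H/ACA snoRNP, was next, with 32.2, 20.2 and 20.8 CPM in EAE B cells with anti-Btla, against 51.5, 43.4 and 39.6 CPM with control Ig (-0.94 ± 0.11, adjusted p = 5.5e-06). Pno1, a factor of late 40S assembly, had 54.1, 54.3 and 51.4 CPM in EAE B cells with anti-Btla, against 100, 100 and 87.6 CPM with control Ig (-0.93 ± 0.08, adjusted p = 3.6e-07).

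The snoRNP cores and the nucleolar proteins came next by role. The box H/ACA genes had a median log2 change of -0.87 in EAE B cells and -0.83 in naive B cells, the box C/D genes -0.77 and -0.72, and the abundant nucleolar proteins -0.76 and -0.80. Nop56, a core protein of the box C/D snoRNP, had 267, 288 and 280 CPM in naive B cells with anti-Btla, against 428, 424 and 406 CPM with control Ig (-0.68 ± 0.05, adjusted p = 7.7e-09). Nolc1, a chaperone of snoRNPs, had 63.3, 60.9 and 59.8 CPM with anti-Btla, against 101, 105 and 88.5 CPM with control Ig in the same cells (-0.76 ± 0.06, adjusted p = 4.7e-09). Ncl had 1705, 1743 and 1540 CPM in EAE B cells with anti-Btla, against 3071, 2701 and 2362 CPM with control Ig (-0.78 ± 0.07, adjusted p = 1.2e-06). Mybbp1a, a nucleolar Myb-binding protein, changed by -0.68 ± 0.07 in EAE B cells, and the helicase Ddx21 by -0.71 ± 0.07. In all of these genes the groups did not overlap.

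The assembly factors of the 2 subunits had medians of -0.62 in EAE B cells and -0.59 in naive B cells for the 16 genes of the small subunit and -0.58 and -0.61 for the 19 of the large one. All 16 and all 19 were called lower in both sets. Heatr1, a large protein of the small subunit processome, had 352, 394 and 373 CPM in naive B cells with anti-Btla, against 524, 506 and 523 CPM with control Ig (-0.57 ± 0.05, adjusted p = 6.0e-08). Utp20, a scaffold of the same particle, changed by -0.54 ± 0.05 (adjusted p = 1.8e-07), Wdr43 by -0.61 ± 0.06 (adjusted p = 2.8e-07), the 40S factor Bysl by -0.70 ± 0.11 (adjusted p = 3.4e-05) and the endonuclease of the last cut of 18S rRNA, Nob1, by -0.54 ± 0.10 (adjusted p = 2.3e-04) in naive B cells. The 3 genes of the Pes1 complex were lower in naive B cells, Pes1 by -0.50 ± 0.05 (adjusted p = 4.4e-07), Bop1 by -0.70 ± 0.12 (adjusted p = 2.8e-04) and Wdr12 by -0.48 ± 0.06 (adjusted p = 6.6e-06). For the 60S GTPases, Gnl3 (nucleostemin) changed by -0.69 ± 0.06 and Gtpbp4 by -0.51 ± 0.05, and for Nop2, an rRNA methyltransferase, the change was -0.65 ± 0.07. Pa2g4, a growth-related protein that binds ribosomes, had 409, 392 and 359 CPM in EAE B cells with anti-Btla, against 691, 666 and 609 CPM with control Ig (-0.84 ± 0.06, adjusted p = 1.4e-07).

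RNA polymerase I and its factors had the smallest medians of the roles, with values of -0.33 in EAE B cells and -0.44 in naive B cells. Polr1b had 38.0, 37.1 and 35.6 CPM in EAE B cells with anti-Btla, against 53.01, 56.6 and 51.6 CPM with control Ig (-0.61 ± 0.07, adjusted p = 8.4e-06). Polr1a had 168, 174 and 158 CPM with anti-Btla, against 200, 239 and 215 CPM with control Ig in the same cells (-0.47 ± 0.06, adjusted p = 4.0e-05). The factors beside the subunits were nearer the threshold. Ubtf, the upstream binding factor of the rDNA promoter, changed by -0.33 ± 0.08 in EAE B cells (adjusted p = 4.7e-03), and Rrn3 by -0.26 ± 0.09 (adjusted p = 0.030), a call that was lost on leaving out any 1 of 4 libraries. Tcof1 had 190, 154 and 139 CPM in EAE B cells with anti-Btla, against 175, 165 and 200 CPM with control Ig (-0.24 ± 0.12, adjusted p = 0.14), which overlapped. In naive B cells Tcof1 had 178, 137 and 146 CPM with anti-Btla, against 197, 193 and 150 CPM with control Ig (-0.31 ± 0.10, adjusted p = 0.026). That call was lost without the replicate block and on leaving out any 1 of 3 libraries. The effect of anti-Btla did not differ detectably between EAE and naive B cells for any member in edgeR (0 of 53, where 0% of all genes were called in either direction), with none at an unadjusted p under 0.05 and none in DESeq2.

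B cells with anti-Btla were also set against unstimulated B cells. These fits share the anti-Btla libraries with the comparison above and the unstimulated libraries with the one before it, so the values are given side by side and no agreement is drawn from them. In naive B cells 1 of 53 members was higher than in unstimulated cells, where 3.8% of genes were called higher, and none was lower, where 4.28% were. The median of the members was -0.02, and the approximate 95% intervals of the 53 changes lay between -0.52 and 0.48. In EAE B cells 1 member was higher, where 3.35% of genes were called, and 3 were lower, where 2.62% were, with a median of -0.05. The 1 member higher in each set was Npm1. It had 1834, 1939 and 1899 CPM in naive B cells with anti-Btla, against 1494, 1474 and 1499 CPM in unstimulated cells (0.36 ± 0.06, adjusted p = 3.4e-04), with no overlap. In EAE B cells it had 2677, 2119 and 2014 CPM with anti-Btla, against 2102, 1650 and 1789 CPM in unstimulated cells (0.34 ± 0.08, adjusted p = 0.016), with overlap. The 3 lower members in EAE B cells were Rrs1 (-0.39 ± 0.11, adjusted p = 0.047), Nop56 (-0.27 ± 0.06, adjusted p = 0.017) and Nop14, a protein of the small subunit processome (-0.24 ± 0.06, adjusted p = 0.036). The 4 calls in EAE B cells fell to 0 without the replicate block or without the second anti-Btla library.

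**Figure D5:**
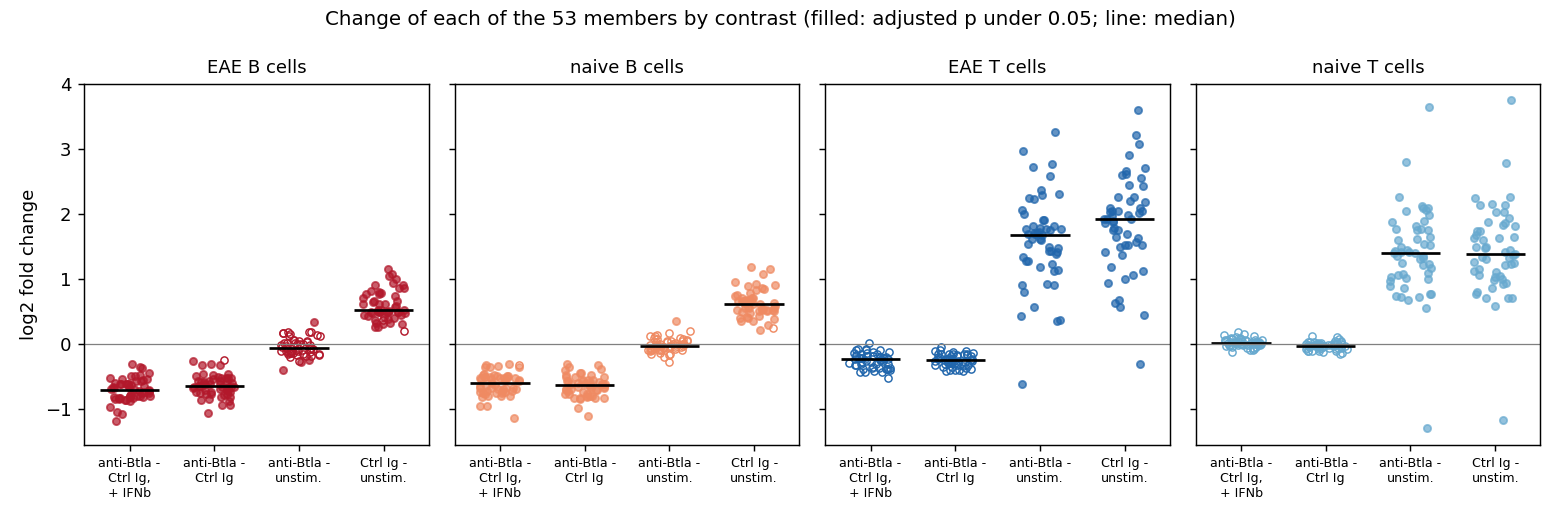
Log2 fold change (y axis) of each of the 53 members in 4 contrasts (x axis) per set, filled where the adjusted p was under 0.05, with a line at the median. In B cells the medians are -0.70 and -0.60 for anti-Btla with IFNb, -0.64 and -0.62 for anti-Btla, -0.05 and -0.02 for anti-Btla against unstimulated cells, and 0.53 and 0.62 for stimulation (EAE and naive), while in T cells every anti-Btla point against control Ig is open.

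In T cells no member passed the test for anti-Btla in either set. In EAE T cells edgeR called 0 of 53, where 0.117% of 14547 genes were called in either direction, while 32 members had an unadjusted p under 0.05 and DESeq2 called 4. All 53 estimates were negative, with a median of -0.25, and 48 of 53 members were lower in 3 of 3 pairs. Polr1b had 52.6, 41.9 and 44.0 CPM in EAE T cells with anti-Btla, against 74.7, 50.6 and 64.9 CPM with control Ig (-0.42 ± 0.10, adjusted p = 0.090). Those groups overlapped in 1 library. Gnl2, a GTPase of 60S assembly, had the smallest adjusted p (-0.40 ± 0.09, adjusted p = 0.077). Fitted on the 6 compared libraries alone, 13 members passed. No share of all genes is given beside the counts by unadjusted p, by DESeq2, in pairs or in this smaller fit. These counts are therefore not weighed against all genes. The share of mitochondrial counts also differed between these arms, at 2.96 to 3.89% with anti-Btla and 1.27 to 2.81% with control Ig, and its part in these values was not tested.

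In naive T cells edgeR called 0 of 53 (0% of 15137 genes were called in either direction), DESeq2 called 0, and 1 member, Wdr12, had an unadjusted p under 0.05 (-0.13 ± 0.05, adjusted p = 0.48). The median was -0.03, and the approximate 95% intervals of the 53 changes lay between -0.39 and 0.36. Npm1 had 1951, 2028 and 1924 CPM in naive T cells with anti-Btla, against 1859, 2086 and 2028 CPM with control Ig (-0.04 ± 0.04, adjusted p = 0.89). Srm had 62.5, 64.1 and 52.8 CPM with anti-Btla, against 60.4, 65.1 and 62.9 CPM with control Ig (-0.11 ± 0.08, adjusted p = 0.79). The libraries overlapped for both genes. The difference between the effect in EAE and in naive T cells was not called for any member in edgeR. Of 15966 genes, 0.395% were called in either direction. DESeq2 called none of the members, and 18 had an unadjusted p under 0.05. The counts by unadjusted p and by DESeq2 in naive T cells and in this difference have no share of all genes beside them. They are therefore not weighed against all genes. T cells with anti-Btla were higher than unstimulated cells for 52 of 53 members in EAE (median 1.68, 32% of genes called higher) and 52 of 53 in naive (median 1.40, 27.6% called higher), and Wdr12 was lower in both (30.8% of genes called lower in EAE and 22.2% in naive).

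The difference between B and T cells was tested directly as the anti-Btla change in B cells minus that in T cells. In naive cells it was below 0 for 52 of 53 members, where 9.46% of 17946 genes were called lower, with a median of -0.59. Srm (-0.96 ± 0.16, adjusted p = 1.7e-04), Nhp2 (-0.90 ± 0.12, adjusted p = 1.1e-06) and Fbl (-0.89 ± 0.13, adjusted p = 8.9e-06) differed most. Tcof1 was the member not called (-0.19 ± 0.13, adjusted p = 0.39). In EAE cells 28 of 53 members were called lower, where 7.69% of 16507 genes were, with a median of -0.43. This count was less steady. It was 0 without the replicate block, 13 with another scaling (RLE size factors) and 11 with library size alone. Leaving out 1 library gave 9 to 25. No share of all genes is given for these settings. Cell types were prepared with different stimuli, so the cell type and its stimulus cannot be told apart.

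IFNb did not move the members past the threshold in any set. Almost no gene of any kind passed it in these contrasts, so they cannot show a lack of response particular to the members. Against control Ig alone, control Ig with IFNb gave 0 of 53 calls by edgeR and by DESeq2 in EAE B cells (0% of genes called in either direction, 1 member at an unadjusted p under 0.05), naive B cells (0%, none), EAE T cells (0.0206%, 2 members) and naive T cells (0%, 2 members). The medians ran from -0.04 in EAE B cells to 0.01 in naive T cells. All counts by unadjusted p or DESeq2 in the contrasts with IFNb stand without a share of all genes and are not weighed against them. Mitochondrial counts in EAE T cells took 5.71 to 7.4% with control Ig and IFNb, against 1.27 to 2.81% with control Ig. With anti-Btla and IFNb these counts took 6.57 to 10.2%, and their part in the values of EAE T cells was not tested. Dkc1 had 319, 287 and 266 CPM in EAE B cells with control Ig and IFNb, against 325, 311 and 282 CPM with control Ig alone, which overlapped. With IFNb in both arms, anti-Btla lowered 53 of 53 members in EAE B cells (17.4% of genes called lower, median -0.70) and 52 of 53 in naive B cells (17.4%, median -0.60), Ubtf being the member not called (-0.31 ± 0.11, adjusted p = 0.055). Srm again changed most, by -1.18 ± 0.08 in EAE B cells and -1.13 ± 0.13 in naive B cells. In T cells with IFNb in both arms edgeR called none of the 53 in EAE (0% of genes in either direction, 28 members at an unadjusted p under 0.05, 2 called by DESeq2) and none in naive (0.0198%, 1 member, none by DESeq2). The anti-Btla change with IFNb minus that without it was called for no member by edgeR or DESeq2 in EAE B cells (0% of genes, 1 member at an unadjusted p under 0.05), naive B cells (0%, 1 member), EAE T cells (0%, 3 members) or naive T cells (0%, 2 members).

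Before stimulation, B cells from EAE and naive mice did not differ detectably in any member by edgeR or DESeq2. By edgeR 0.209% of 16248 genes were called in either direction. An unadjusted p under 0.05 was held by 3 members, a count with no share of all genes beside it. In unstimulated T cells 13 of 53 members were higher in EAE, where 18.6% of 13909 genes were called higher. Lower in EAE were 10 members, where 17.3% of genes were called lower. The median of the members was 0.10. Members were called in both directions at shares near those of all genes, so the split is not read as a trait of the members. Wdr12 had 140, 77.3 and 116 CPM in EAE, against 371, 413 and 362 CPM in naive cells (-1.71 ± 0.21, adjusted p = 2.4e-03). Rrp1b had 27.5, 30.8 and 24.2 CPM in EAE, against 10.5, 12.7 and 13.4 CPM in naive cells (1.23 ± 0.15, adjusted p = 9.7e-05). Noc4l, a factor of 40S maturation, had 22.4, 19.3 and 25.985 CPM in EAE, against 10.5, 11.1 and 10.03 CPM in naive cells (1.19 ± 0.14, adjusted p = 1.0e-04). None of these 3 genes overlapped between the groups. Nob1 was lower in EAE (-1.01 ± 0.16, adjusted p = 6.3e-04), and Npm1 (0.34 ± 0.08, adjusted p = 6.5e-03), Rrn3 (0.46 ± 0.09, adjusted p = 2.5e-03) and Ubtf (0.35 ± 0.08, adjusted p = 6.2e-03) were higher. With protein-coding transcripts alone 12 members were called in place of 23, and leaving out the third naive library left 15. Neither count has a share of all genes beside it.

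The remaining genes of the pathway were taken as a list of 80 further ribosome biogenesis genes. Stimulation was called higher for 65 of 80 in each set of B cells, where 21% of all genes were in EAE and 22.8% in naive cells, and none was called lower. In T cells it was called higher for 71 in EAE cells, where 31.8% of all genes were, and 72 in naive cells, where 27.2% were, and again none was lower. Anti-Btla lowered 63 of 80 in EAE B cells (median -0.41), where 16.6% of all genes were called lower, and 71 in naive B cells (median -0.42), where 19.8% were, and none in T cells. In naive B cells the largest of these was Gar1, a core protein of the box H/ACA snoRNP (-1.05 ± 0.09, adjusted p = 2.2e-08), followed by Nop10 of the same particle (-0.88 ± 0.07, adjusted p = 7.3e-09). The B minus T difference was called lower for 50 of the 80 in naive cells, where 9.46% of all genes were, and 20 in EAE cells, where 7.69% were. Myc itself, which is in neither list, had 167, 144 and 143 CPM in naive B cells with anti-Btla, against 293, 288 and 241 CPM with control Ig (-0.95 ± 0.06, adjusted p = 1.7e-09). In naive T cells it had 423, 447 and 421 CPM with anti-Btla, against 419, 487 and 455 CPM with control Ig (-0.10 ± 0.05, adjusted p = 0.64). The arms did not overlap in naive B cells and overlapped in naive T cells. Myc had 225, 189 and 147 CPM in EAE B cells with anti-Btla, against 301, 320 and 309 CPM with control Ig (-0.82 ± 0.12, adjusted p = 1.3e-04), with no overlap. The EAE T cells had 416, 400 and 397 CPM with anti-Btla, against 490, 484 and 482 CPM with control Ig, without overlap, a difference that did not pass the test (-0.23 ± 0.17, adjusted p = 0.76).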

How the data were processed

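The authors deposited Salmon tables of estimated counts and TPM per transcript (GRCm38 per the labels), and DESeq2 is named in the submitters' processing notes; no version or strand setting was given in the sources used here. The 67 tables were joined to 60 libraries, 7 libraries having 2 runs that were summed. Estimated counts as deposited were summed per gene and rounded to whole numbers, and TPM as deposited were summed per gene for levels. Transcripts without a gene name in the annotation (648 in B and 1000 in T cell tables) held 0.186 to 0.243% and 0.442 to 0.714% of counts and were left out.

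Genes passing filterByExpr (minimum count 10) were fitted in R 4.3.3 with edgeR 4.0.16 (TMM scaling, robust quasi-likelihood test) over the 15 libraries of a set, or the 30 or 6 libraries a difference needs, and called at an adjusted p under 0.05 (Benjamini-Hochberg over all genes tested). The replicate number was a block in all fits but EAE against naive unstimulated cells, since the study's statistics carry the replicate as a term. CPM are counts per 1000000 counts of a library. Scripts were tested on simulated data. The alternatives were DESeq2 1.42.0, other scalings, no filter, no block, the compared groups only, protein-coding transcripts only and leaving out each library. Shares of all genes called are given for the edgeR calls with the settings above only. They are not given for unadjusted p-values, pairs, overlaps or the alternatives.

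Genes named were representatives of each role, some of the members with the largest or smallest changes in a comparison, and members called against the direction of most. Not every member with such a change was named. Nhp2 and Imp4, for example, were not named for stimulation of EAE T cells. Members of the wider list named are its largest changes, and were chosen after their values were seen. The members, lists and tests were chosen with earlier results of these data known. Intervals are approximate 95% intervals of the fit. Promoters were RefSeq sequences of GRCm38.p6.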

Additional observations from a re-analysis of the deposited data

Results flagged for a closer look

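The changes in 3 contrasts differed between sets of cells by a test of the difference itself. The anti-Btla change in B cells minus that in T cells was called lower for 52 of 53 members in naive cells, where 9.46% of all genes were. In EAE cells it was called lower for 28, where 7.69% of all genes were, and for 9 to 25 on leaving out a library. The change on stimulation in EAE T cells minus that in naive T cells was called for 31 in either direction. Of all genes 20.7% were called higher and 16.9% lower in that contrast. B and T cells received different stimuli and the naive T cell libraries held CD8 transcripts, and the part of these in the differences was not tested.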

How the results depend on the processing

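Counts of members called under other settings moved past their limits in 7 comparisons. They stand without the share of all genes called under the same setting, so they are not weighed against all genes. Anti-Btla against unstimulated EAE B cells (4 called) gave 7 with library size alone and 0 without the replicate block or with the compared groups only, and 0 to 5 on leaving out 1 library. The same contrast in naive B cells (1 called) gave 2 with library size alone and 2 with DESeq2. Anti-Btla in EAE T cells (0 called) gave 4 with DESeq2, 2 with no filter and 13 with the compared groups only, and with IFNb in both arms 2, 9 and 15, and 0 to 2 on leaving out 1 library. The anti-Btla change in EAE minus naive T cells (0 called) gave 1 with no filter and 2 with the compared groups only. The B minus T difference in EAE cells (28 called) gave 11 with library size alone, 13 with RLE size factors, 0 without the replicate block, 9 with protein-coding transcripts only and 9 to 25 on leaving out 1 library. Unstimulated EAE against naive T cells (23 called) gave 12 with protein-coding transcripts only and 15 to 19 on leaving out 1 library. The change of Polr1a with anti-Btla against unstimulated EAE T cells turned to -0.016 with protein-coding transcripts only. The causes were not tested. Changes of single members were also counted once per comparison and setting, so each change enters many times. Among those that were called, 4429 kept direction and call under the other settings and 172 lost the call. On leaving out a library 4363 kept it and 287 lost it. Among those not called, 71 became called under the other settings and 24 on leaving out a library. Library size alone moved the median of all genes to -0.19 on stimulation and 0.12 with anti-Btla in EAE B cells.

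Without the replicate block, stimulation was called for 47 members in EAE B cells and 52 in naive B cells, and anti-Btla for 48 and 52. No share of all genes called without the block is given, so these counts are not weighed against all genes. Of the 120 correlations between same-numbered libraries of a set, 111 were over 0.1 (-0.08 to 0.72), and 59 of 60 libraries correlated best with their own number. The labels do not say what a number shares.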
